A study of Mus musculus with 5 samples.

Results

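Complex I, the NADH:ubiquinone oxidoreductase of the inner mitochondrial membrane, was followed through the nuclear genes whose symbols begin with Nduf, in mammary glands of mice with and without an inducible cyclin D1 transgene. The array annotation held 46 such symbols. They were measured as 44 genes, because Ndufb4 and Ndufb4b share their probe sets and count as 1 gene, and the pseudogene Ndufs5-ps, which has only a probe set shared with Ndufs5, was kept apart. These 44, of 19940 genes measured in all, were 10 named Ndufs or Ndufv, 27 named Ndufa, Ndufb or Ndufc, and 7 assembly factors (Ndufaf). Members were found by symbol, and the probe set of highest mean was taken for each.

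Complex I takes electrons from NADH, passes them through a flavin and a chain of iron-sulfur clusters to ubiquinone, and pumps protons across the membrane. Its catalytic core is made of nuclear subunits of the matrix arm and of subunits encoded by mitochondrial DNA in the membrane arm. Accessory subunits surround that core, and the Ndufaf proteins help to build the complex without staying in it. Milk-producing epithelium is rich in mitochondria, since milk synthesis uses much ATP, and so are brown fat and muscle, which can lie in or beside a mammary fat pad.

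Total RNA came from whole glands of 8-week-old FvB/N females. The 2 rtTA control mice carried the MMTV-rtTA transgene, and the 3 rtTA/Cyclin D1 mice carried it together with a cyclin D1 transgene (rtTA/CCND1 in the labels). rtTA switches on its responder when doxycycline is given, and the MMTV promoter drives it mainly in mammary epithelium. Expression of the transgene is thus limited to cells in which that promoter works. Whether other cells of the gland responded in turn was not tested. Doxycycline for 7 days stands in the treatment label, which speaks there of a KE mutant, and it is silent on whether the controls had the drug. Each mouse gave 1 array, and the study's design calls the mice separate animals.

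The arrays differed before any gene was looked at. Across all 19940 genes the SD of log2 expression was 0.735 and 0.926 in the controls and 1.20 to 1.38 in the cyclin D1 glands, and the controls correlated with each other at r = 0.779, against 0.955 to 0.962 among the cyclin D1 glands. Genes with bright signal were mostly higher in the cyclin D1 glands: the median log2 difference, cyclin D1 minus control, was -0.05 over all genes and 1.59 in the decile of highest mean signal. A wider spread from the arrays and a rise of bright genes cannot be told apart here. The members' differences are therefore also given for the main results after the 5 arrays were quantile-normalized again ("renormalized"), where the top-decile median was 0.36. Ccnd1 itself, the endogenous gene of the transgene's product, read 4.04 and 3.49 in the controls and 4.63, 4.92 and 4.0 in the cyclin D1 glands (log2 difference 0.75, SE 0.32, limma adjusted p = 0.218; -0.14 renormalized). Its groups overlapped, so this probe set gave no check of the labels, and whether it reads the transgene was not tested.

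Many markers of mammary epithelium were higher in the same glands. Of 11 measured genes of milk secretion, all in the top signal decile, 8 passed as higher (5.38% of all genes and 35.9% of that decile did) and 1 after renormalization, and their mean log2 expression was 6.26 and 6.98 in the controls and 9.05 to 9.99 in the cyclin D1 glands. Of 11 luminal and basal epithelial genes 3 passed, with means of 3.47 and 3.65 against 4.35 to 4.75, and 0 after renormalization (limma). The basal keratins Krt17 and Krt14 had negative differences, -0.25 and -0.10, and did not pass. None of the 52 markers of other cell types passed (limma), and 4 had an unadjusted p under 0.05 (7.69%, against 26.3% of all genes). The lists also differed in brightness. The top decile held 5 of the 11 luminal and basal genes and 7 of these 52, and the part of brightness in the counts was not tested. In 8 of the 52 all cyclin D1 values lay above both controls and in 6 below, against 22.4% and 22.6% of all genes. For white fat 0 of 9 passed, with means of 4.93 and 5.0 against 4.50 to 5.77. The counts were 0 of 8 for brown fat, 0 of 11 for skeletal muscle, 0 of 6 for fibroblasts and 0 of 5 for endothelium. They were 0 of 5 for macrophages, 0 of 6 for lymphocytes and 0 of 2 for red blood cells. The macrophage genes Cd14 and Cd68 differed by 1.81 and 1.41 without passing (1.58 and 0.88 renormalized). Adgre1, Itgam and Csf1r of that list differed by 0.11, -0.11 and -0.02. In whole tissue a change in the share of a cell type and a change of RNA within a cell cannot be told apart, and the part of epithelial content in the differences that follow was not tested.

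Nuclear genes of the respiratory chain are known targets of NRF1, of ETS-family factors such as GABP, of YY1 and of ERR factors, so the promoters of the members were read for their recognition letters. Promoter sequences from RefSeq (GRCm38.p6), 250 bases before the gene start and the first 50 after it, were matched for 40 of the 45 symbols that lie behind the 44 genes. Letters were searched on both strands. For NRF1 the letters GCGCA, any base and GCGC were in 9 of 40 members (22.5%) and in 5.19% of the 27025 genes with a promoter. AAGATGGC (YY1) was in 7 (17.5%, against 3.19%), CCGGAAG (ETS) in 5 (12.5%, against 9.93%) and TCAAGGTCA (ERR) in 0 (against 0.466%). The 250 bases before the start held a median of 16.5 CpG in members, against 6 over all promoters. Median GC content was 57.8% and 52.4%. The NRF1 letters themselves hold CpG, and the part of promoter composition in these shares was not tested. Ndufs6 held both the NRF1 and the YY1 letters, and 20 members held none of the 4 motifs.

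The stretches below are those of members described later, with the matched letters in capitals, 5′ to 3′ on the gene's strand. A match on the other strand appears here as its reverse complement. They are shown because members with the same letters differed widely in their expression difference on the deposited scale, on which passing is given here. For NRF1, Ndufaf4 passed the test while Ndufa8 and Ndufs5 were near 0 (renormalized 0.52, not passing, against -0.88 and -0.16):
Ndufaf4 (chr4:24897930-24898019, + strand): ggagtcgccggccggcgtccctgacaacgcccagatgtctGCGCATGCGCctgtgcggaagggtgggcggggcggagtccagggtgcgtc
Ndufs6 (chr13:73328483-73328538, - strand): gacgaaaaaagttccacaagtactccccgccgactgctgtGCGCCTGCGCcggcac
Ndufs5 (chr4:123718235-123718324, - strand): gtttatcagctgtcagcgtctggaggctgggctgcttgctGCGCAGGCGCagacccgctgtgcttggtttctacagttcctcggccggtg
Ndufa8 (chr2:36049339-36049408, - strand): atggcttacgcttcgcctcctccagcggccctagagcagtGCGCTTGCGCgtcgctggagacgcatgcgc

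For ETS factors, the letters lay before the start of Ndufb7 and Ndufb6, which passed, and of Ndufs3, which did not:
Ndufb7 (chr8:83566698-83566757, + strand): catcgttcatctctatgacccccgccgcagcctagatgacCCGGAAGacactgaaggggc
Ndufb6 (chr4:40279607-40279671, - strand): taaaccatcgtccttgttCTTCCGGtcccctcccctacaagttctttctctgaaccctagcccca
Ndufs3 (chr2:90904722-90904788, - strand): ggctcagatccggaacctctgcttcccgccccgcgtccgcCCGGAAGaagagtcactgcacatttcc

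The YY1 letters were placed alike in every member that held them: all 7 matches lay after the gene start, with their first base between bases 23 and 39, and on the gene's own strand. Over all genes 284 of 927 matches did so for strand and side of the start. The sites of 4 members, of which Ndufa9 and Ndufs4 passed, read:
Ndufa9 (chr6:126849097-126849126, - strand): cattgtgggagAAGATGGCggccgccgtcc
Ndufs4 (chr13:114388045-114388070, - strand): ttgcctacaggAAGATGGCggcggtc
Ndufc1 (chr3:51408915-51408944, - strand): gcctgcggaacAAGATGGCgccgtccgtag
Ndufs7 (chr10:80249462-80249491, + strand): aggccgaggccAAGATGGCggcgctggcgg

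On the deposited scale the passing members were spread over the motifs, and renormalized 0 of the 44 genes passed (limma). Of the members with the NRF1 letters 1 of 9 passed (median log2 difference 0.55), of those with ETS letters 2 of 5 (1.05), of those with YY1 letters 2 of 7 (0.85), and of the 20 with none 3 passed (0.90). Ndufb4, with the NRF1 letters, and Ndufb4b, with none, share 1 measurement (difference 2.05, not passing), which enters both of these groups. These counts describe letters in a window, not binding.

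As a group, complex I genes read higher in cyclin D1 glands on the deposited scale. Of the 44, 9 passed as higher (20.5%), against 5.38% of all genes, and 0 passed as lower (limma), against 0.687%. Positive differences were held by 39 (88.6%), against 44.3% of all genes and 95.5% of the top signal decile. The 9 were Ndufs1, Ndufv2, Ndufs4, Ndufa9, Ndufa10, Ndufab1, Ndufb6, Ndufb7 and Ndufaf4. The median log2 difference was 0.81. The members were brighter than most genes, and 18 lay in the top decile of mean signal. Of these 18, 8 passed as higher (44.4%), against 35.9% of all genes in that decile, and 0 as lower, against 0.0502%. Their median difference was 1.71 against 1.59, so their share and size were near those of other bright genes. Renormalized, 0 of 44 passed in either direction (limma), against 0.256% higher and 0.105% lower over all genes. An unadjusted p under 0.05 was held by 17 members and by 3738 of all 19940 genes. The renormalized median was 0.27, with 26 positive differences, against 9522 of 19940 over all genes and 1271 of 1994 in the top decile.

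The count of 9 rested on control 1 and on each of the cyclin D1 arrays. It was 0 without control 1, without cyclin D1 replicate 1 or without cyclin D1 replicate 2, where 0 of all genes passed too (limma). Without cyclin D1 replicate 1 or 2, members with an unadjusted p under 0.05 (limma) numbered 17 and 19, when 3569 and 3490 of all genes had one. On the full set of arrays 26 members did (59.1%), against 26.3% of all genes and 77.4% of the top decile. The number of members that passed was 3 without cyclin D1 replicate 3, when 300 of all genes passed as higher. Without control 2, which leaves 1 control, the median difference of the members was 1.08. The renormalized count of 0 rested on the controls: without control 1, 3 members passed as higher, against 2.78% of all genes, and without control 2, 10 passed as higher and 5 as lower, when 2219 and 3152 of all genes did.

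**Figure D1:**
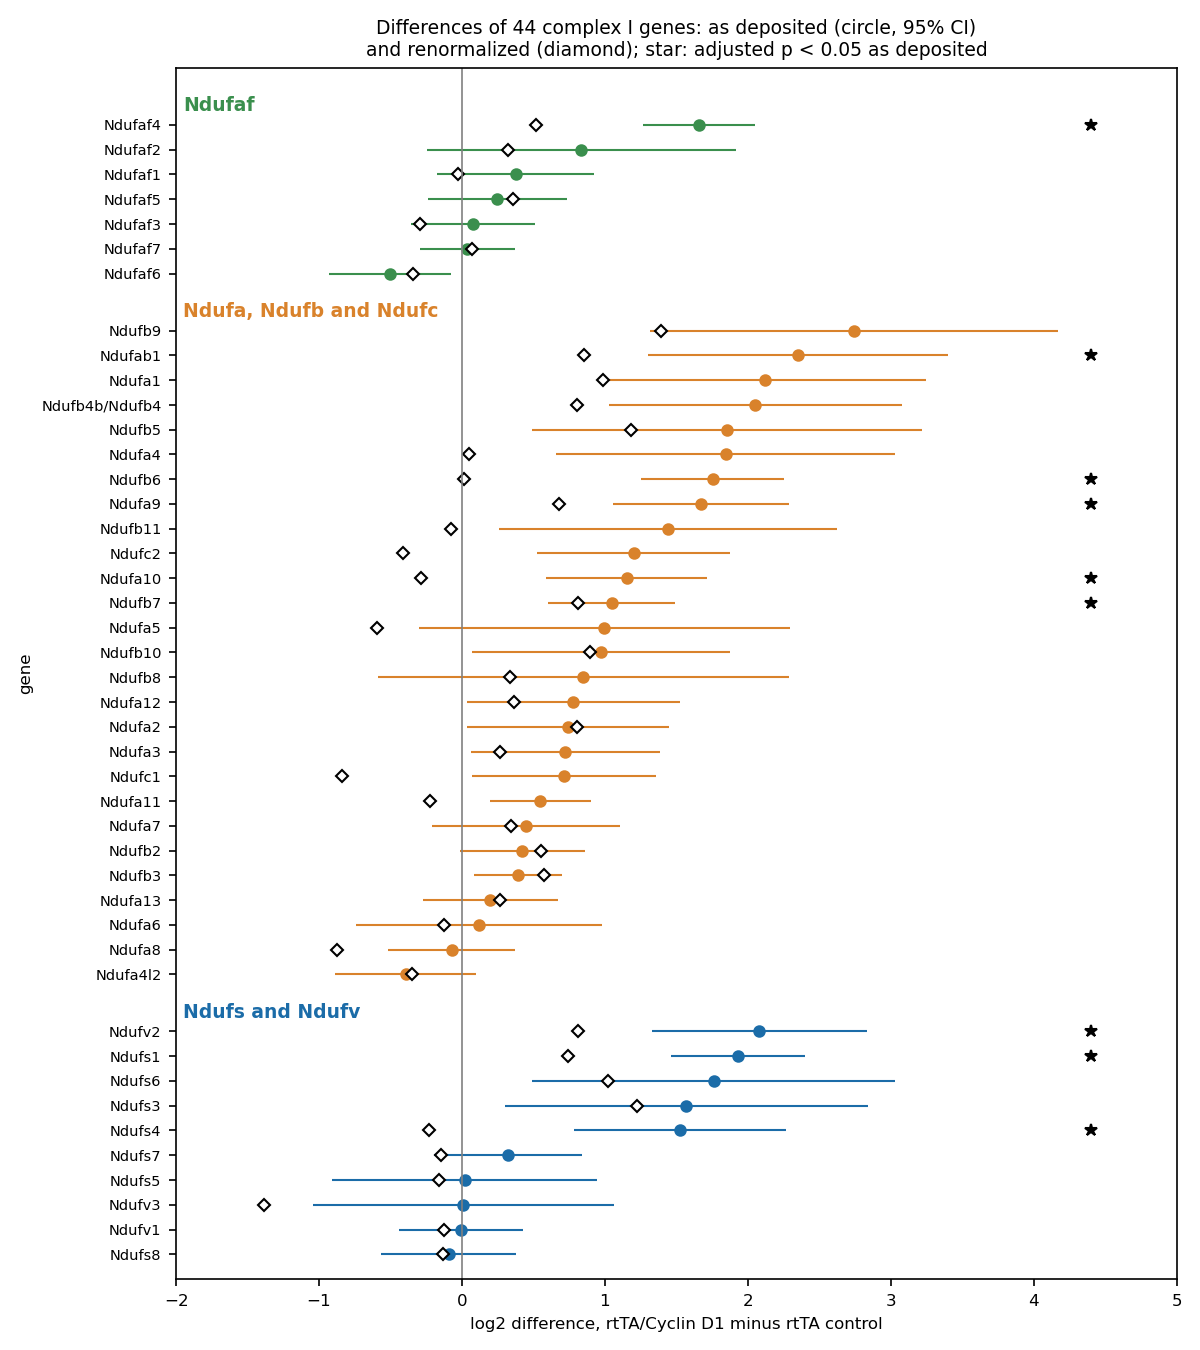
Log2 difference, rtTA/Cyclin D1 minus rtTA control, of each of the 44 genes by class: filled circles with 95% confidence intervals are deposited values, open diamonds renormalized values, and stars mark adjusted p under 0.05 as deposited. The 9 starred genes have deposited differences of 1.05 (Ndufb7) to 2.35 (Ndufab1), and most diamonds lie to the left of their circles.

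In 26 of 44 members all 3 cyclin D1 values lay above both controls (59.1%), against 22.4% of all genes and 82.2% of the top decile; in 2 members, Ndufa4l2 and Ndufaf6, all lay below, against 22.6% of all genes. Renormalized, 14 lay above, against 20.1% of all genes, and 8 below, against 19.5%; of the 18 top-decile members 7 lay above, against 33.6%. Across the 44 members the difference went with mean signal (Pearson r = 0.751, a description over genes measured on the same 5 arrays), much as over all genes (r = 0.743).

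**Figure D2:**
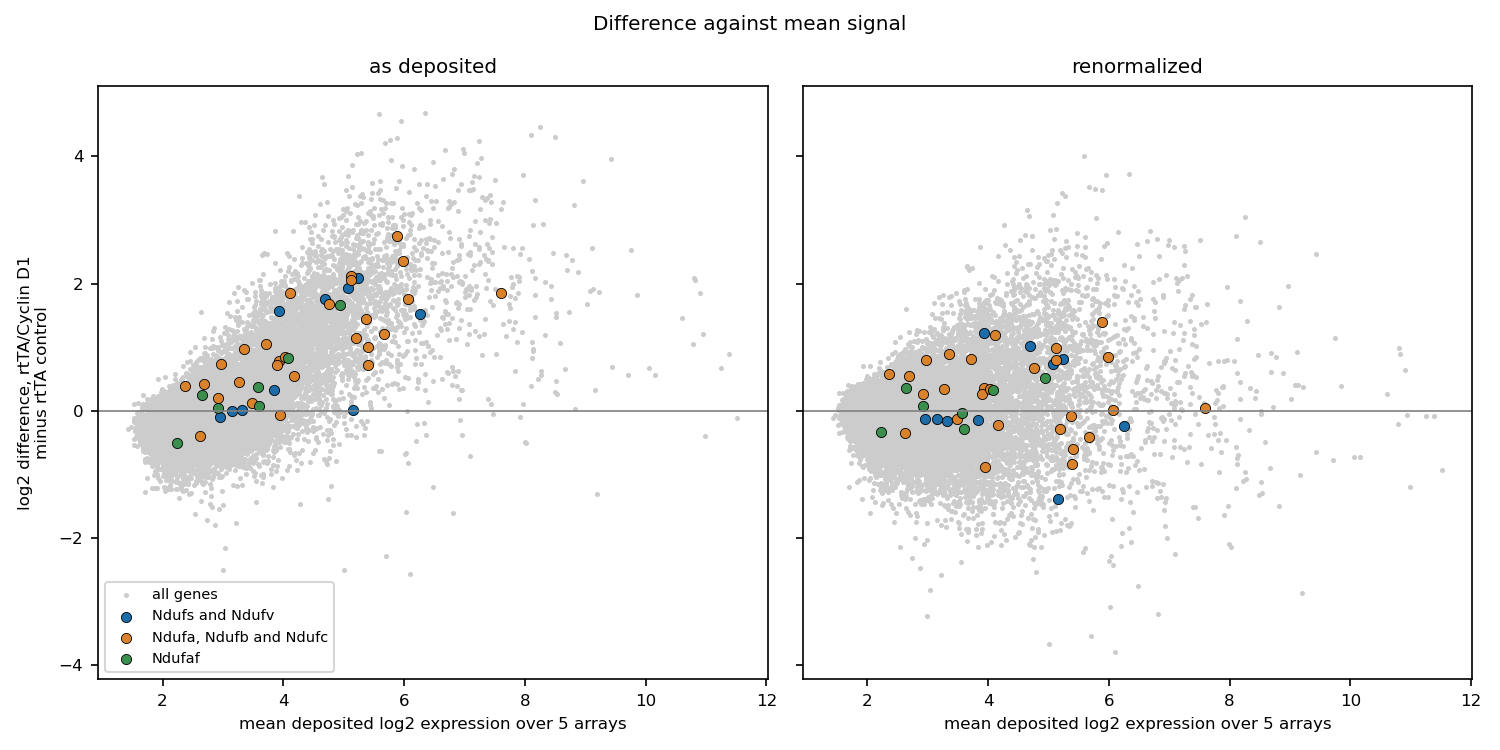
Log2 difference against mean deposited log2 expression for all 19940 genes (grey) and the 44 complex I genes (coloured by class), as deposited on the left and renormalized on the right. On the left the members follow the upward slope of all genes (r = 0.751 and 0.743); on the right they scatter around 0, with a median of 0.27.

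The nuclear core subunits differed widely among themselves. On the deposited scale 2 of the 6 described here rose, 0 fell, and the median difference was 0.95 (0.31 renormalized). Over all genes 5.38% rose, and 35.9% of the top signal decile, which held 2 of the 6.

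In the NADH-oxidising tip, Ndufs1 carries several of the iron-sulfur clusters. It read 3.95 and 3.87 in the controls and 6.04, 5.93 and 5.55 in the cyclin D1 glands. The groups lay far apart: the difference was 1.93 (3.81-fold, SE 0.19, limma adjusted p = 0.0165). Ndufv2, which holds a further iron-sulfur cluster beside the flavin, read 3.97 and 4.01 in the controls and 6.62, 5.91 and 5.68 in the cyclin D1 glands, a rise of 2.08 (4.23-fold, SE 0.30, adjusted p = 0.0284). Renormalized, these genes differed by 0.74 and 0.81, neither passing, although the groups still did not overlap.

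Ndufv1, which binds the flavin and NADH in the same tip, did not move with them. It read 3.34 and 2.96 in the controls and 3.21, 3.21 and 3.02 in the cyclin D1 glands. The groups overlapped, and the difference of -0.01 (-0.13 renormalized) had a 95% interval of -0.44 to 0.43. On the deposited scale that interval does not reach the interval of Ndufs1 (1.46 to 2.40). Renormalized, Ndufv1 differed by -0.13 (SE 0.23) and Ndufs1 by 0.74 (SE 0.24). The difference between the 2 genes was not tested on either scale. By mean signal Ndufs1 and Ndufv2 lay in decile 10, the brightest, and Ndufv1 in decile 7. The part of brightness in this contrast was not tested.

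The other core subunits belong to the part of the matrix arm that passes electrons on to ubiquinone. Ndufs3 read 2.57 and 3.42 in the controls and 5.19, 4.80 and 3.70 in the cyclin D1 glands, so that the groups did not overlap but the cyclin D1 values were widely spread (difference 1.57, SE 0.51, limma adjusted p = 0.131; 1.22 renormalized). Its other probe set, 10386171, differed by 1.40. Ndufs7, which holds the last cluster before ubiquinone, read 3.38 and 3.92 against 3.84, 4.09 and 3.99, an overlap (difference 0.32, 95% interval -0.19 to 0.84, adjusted p = 0.362; -0.15 renormalized). Ndufs8, its neighbour in the electron path, read 3.19 and 2.83 against 3.07, 2.98 and 2.71. Its difference was -0.09 (95% interval -0.56 to 0.38, limma adjusted p = 0.777), and -0.13 renormalized. For Ndufs7 and Ndufs8 the intervals leave room for small differences in both directions.

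**Figure D3:**
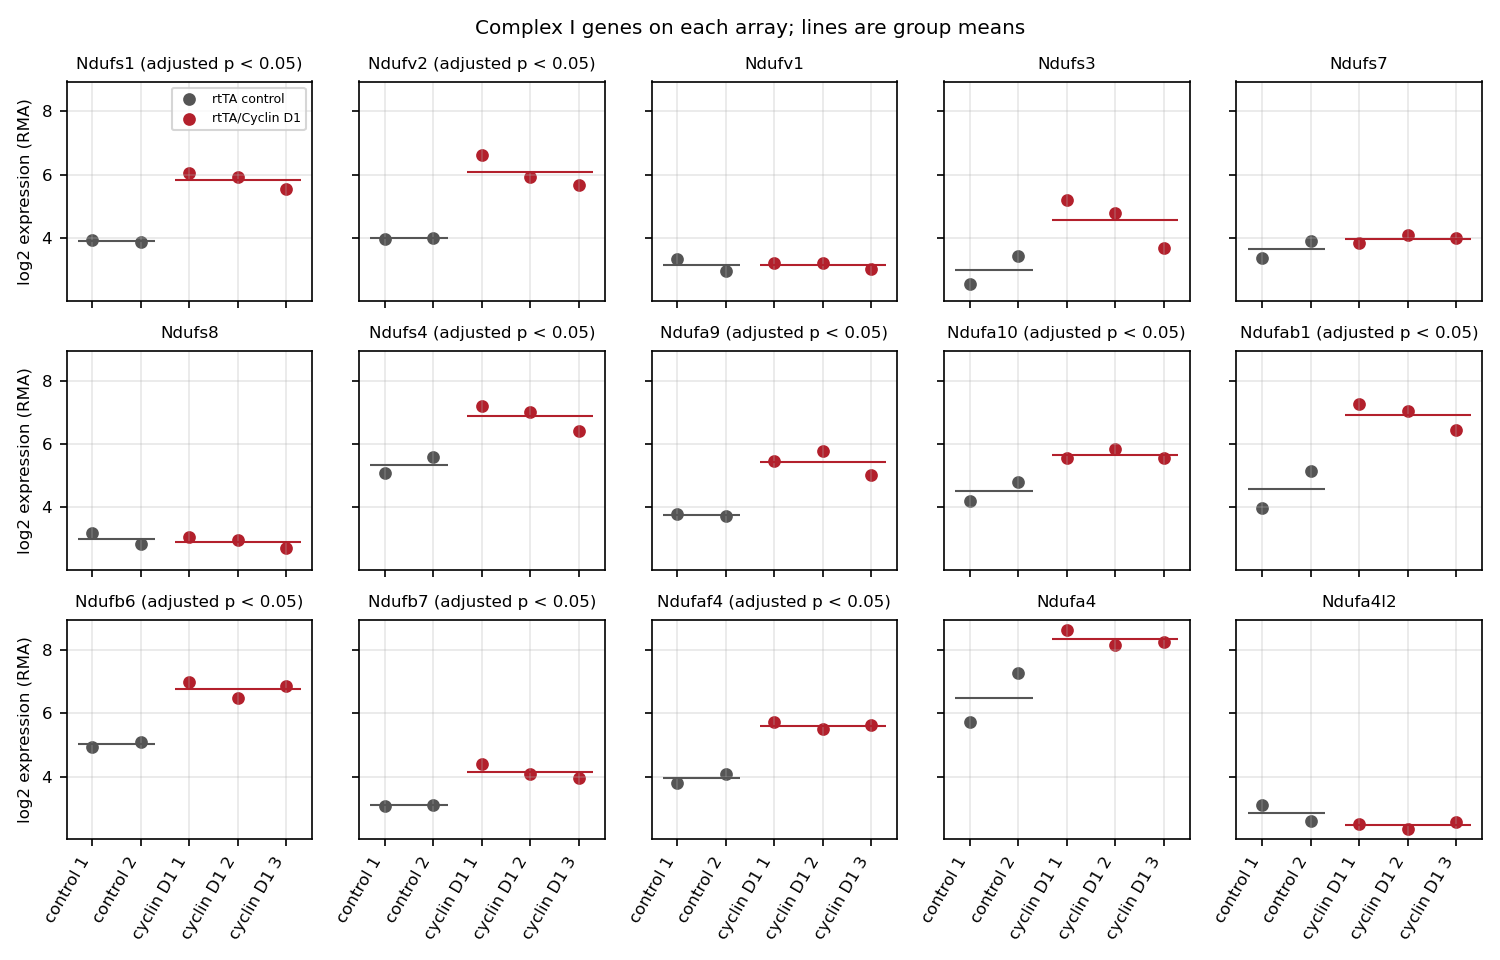
Deposited log2 expression of 15 complex I genes on the 5 arrays (grey, 2 rtTA controls; red, 3 rtTA/Cyclin D1 glands; horizontal lines are group means). Ndufs1 and Ndufv2 stand at 3.87 to 4.01 in the controls and 5.55 to 6.62 in the cyclin D1 glands, while the groups overlap for Ndufv1, Ndufs7 and Ndufs8.

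Of the mitochondrially encoded core subunits, ND3 of the membrane arm had a probe set with its symbol. It read 11.6 and 10.8 in the controls and 10.9, 10.6 and 11.0 in the cyclin D1 glands. The groups overlapped, and the difference of -0.39 did not pass (SE 0.28, limma adjusted p = 0.402; -1.20 renormalized), so its sign was opposite to that of the nuclear core genes that rose.

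The 4 other genes named Ndufs or Ndufv encode accessory subunits, and 1 of them rose. Ndufs4, a matrix-arm subunit whose loss causes severe complex I deficiency, read 5.08 and 5.60 in the controls and 7.19, 7.01 and 6.41 in the cyclin D1 glands, a rise of 1.53 (2.88-fold, SE 0.29, limma adjusted p = 0.0479). Renormalized it differed by -0.23, with overlapping groups. Ndufs6, which helps bind zinc in the matrix arm, read 2.78 and 4.51 in the controls and 5.34, 5.59 and 5.27 in the cyclin D1 glands. Its controls lay 1.73 apart, and the difference of 1.76 did not pass (SE 0.50, adjusted p = 0.104; 1.02 renormalized).

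Ndufs5, which faces the intermembrane space, and Ndufv3, a small matrix-arm subunit, gave the lowest differences among these 4. Ndufs5 read 3.06 and 3.56 against 3.86, 3.40 and 2.72 (difference 0.02, SE 0.37; -0.16 renormalized), and Ndufv3 read 4.60 and 5.70 against 5.52, 4.64 and 5.32 (difference 0.01, SE 0.42; limma adjusted p = 0.980 and 0.991). Both overlapped. Renormalized, Ndufv3 differed by -1.39, the lowest value of any member, with all cyclin D1 values below the controls and an adjusted p = 0.104. The probe set shared by Ndufs5 and Ndufs5-ps differed by 0.33 (SE 0.80, adjusted p = 0.815).

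Accessory subunits of the Ndufa series held 3 of the 9 genes that rose. Of the 15, 3 passed, against 5.38% of all genes and 35.9% of the top signal decile, which held 6 of the 15. Positive differences were held by 13 (86.7%), against 44.3% of all genes and 95.5% of that decile. The median was 0.74. Renormalized it was 0.26, and 9 of the 15 were positive, against 9522 of all 19940 genes. Ndufa9, a nucleotide-binding subunit at the junction of the arms, read 3.78 and 3.74 in the controls and 5.48, 5.79 and 5.03 in the cyclin D1 glands, a rise of 1.67 (3.19-fold, SE 0.24, limma adjusted p = 0.0292). The controls were nearly equal and the groups stayed apart after renormalization (0.68, not passing).

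Ndufa10, a membrane-arm subunit on the matrix side, read 4.20 and 4.81 in the controls and 5.57, 5.84 and 5.57 in the cyclin D1 glands. Its rise of 1.15 (SE 0.22, limma adjusted p = 0.0494) was close to the threshold of 0.05, and renormalized it had the opposite sign at -0.28, with all cyclin D1 values below the controls. Ndufa8, which faces the intermembrane space, read 3.92 and 4.05 against 4.13, 3.69 and 3.92. The difference was -0.07 (SE 0.18, adjusted p = 0.813), and -0.88 renormalized.

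Some genes of this series have roles outside complex I. Ndufab1 encodes the mitochondrial acyl carrier protein, which also serves lipoic acid synthesis; it read 3.98 and 5.15 in the controls and 7.26, 7.05 and 6.45 in the cyclin D1 glands. It rose by 2.35 (5.10-fold, SE 0.42, limma adjusted p = 0.0401; 0.85 renormalized, not passing), and its other probe set, 10567657, differed by 1.99. Ndufa4, now known as a subunit of cytochrome c oxidase, read 5.71 and 7.27 in the controls and 8.62, 8.14 and 8.25 in the cyclin D1 glands. The controls were 1.56 apart, the difference of 1.85 did not pass (SE 0.47, adjusted p = 0.0838), and renormalized it was 0.05.

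Ndufa4l2, a hypoxia-inducible relative of Ndufa4, read 3.11 and 2.61 in the controls and 2.50, 2.33 and 2.56 in the cyclin D1 glands. All cyclin D1 values lay below the controls, by little: the difference was -0.39 (SE 0.20, 95% interval -0.89 to 0.10, limma adjusted p = 0.267; -0.35 renormalized).

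The Ndufb genes, subunits of the membrane arm, had positive differences in 10 of 10 measured members, with a median of 1.24, and in 9 of 10 after renormalization (median 0.69). Positive differences made up 44.3% of all genes and 95.5% of the top decile, which holds 4 of the 10. Renormalized, 9522 of all 19940 genes were positive, and 1271 of 1994 in the top decile. Of the 10, 2 passed, against 5.38% of all genes and 35.9% of the top decile. Ndufb6 read 4.93 and 5.10 in the controls and 6.99, 6.46 and 6.85 in the cyclin D1 glands, a rise of 1.75 (3.37-fold, SE 0.20, limma adjusted p = 0.0191), yet renormalized the difference was 0.01. Ndufb7 read 3.06 and 3.11 in the controls and 4.39, 4.07 and 3.95 in the cyclin D1 glands, a rise of 1.05 (2.07-fold, SE 0.18, adjusted p = 0.0364) that was 0.81 renormalized (adjusted p = 0.0788). Both were among the 5 members with ETS letters in their promoters, of which the other 3, Ndufs3, Ndufs8 and Ndufaf1, did not pass.

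Ndufb2 and Ndufb3 gave the lowest Ndufb differences and were dim. Ndufb3 read 2.17 and 2.09 in the controls, under a rough floor of signal, the average of 1027 olfactory receptor genes on each array (2.52 and 2.38 there), and 2.51, 2.53 and 2.53 in the cyclin D1 glands. Its difference is therefore a bound, at least 0.07 (limma adjusted p = 0.124). Ndufb2 read 2.22 and 2.67 against 2.87, 2.87 and 2.84, with control 1 below the floor, so its difference of 0.42 (SE 0.17, adjusted p = 0.203) is inexact. Ndufb9, named after its values were seen, had the largest difference of any member without passing: it read 3.76 and 4.72 in the controls and 7.79, 7.11 and 6.05 in the cyclin D1 glands, a difference of 2.74 (SE 0.57, adjusted p = 0.0560; 1.39 renormalized).

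Both Ndufc genes, small accessory subunits of the membrane arm, had positive differences as deposited and negative ones after renormalization, and neither passed. Ndufc1 read 4.70 and 5.23 in the controls and 5.84, 5.33 and 5.88 in the cyclin D1 glands (difference 0.72, SE 0.26, limma adjusted p = 0.156; -0.84 renormalized), while its other probe set, 10406459, differed by -0.09. Ndufc2 read 4.58 and 5.32 against 6.39, 6.11 and 5.95 (difference 1.20, SE 0.27, adjusted p = 0.0654; -0.41 renormalized).

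Among the 7 assembly factors Ndufaf4 was the gene that rose. It read 3.81 and 4.08 in the controls and 5.71, 5.49 and 5.62 in the cyclin D1 glands, with a narrow spread in both groups: the rise was 1.66 (3.15-fold, SE 0.15, limma adjusted p = 0.0165), and 0.52 renormalized with groups still apart. Ndufaf3, its known partner in early assembly, was named after its values were seen; it read 3.42 and 3.68 in the controls and 3.43, 3.78 and 3.68 in the cyclin D1 glands (difference 0.08, 95% interval -0.36 to 0.51, adjusted p = 0.792). Renormalized it differed by -0.29, with all cyclin D1 values below the controls.

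Ndufaf6 and Ndufaf7 had the lowest differences of the class. Ndufaf6 read 2.75 and 2.32 in the controls and 2.03, 2.04 and 2.03 in the cyclin D1 glands, where 2 of the 3 values lay at or below the floor, as did control 2, so the difference of -0.50 (SE 0.17, limma adjusted p = 0.141; -0.34 renormalized) is inexact. Ndufaf7, a methyltransferase of early assembly, read 2.90 and 2.89 in the controls and 2.85, 3.05 and 2.90 in the cyclin D1 glands; the difference was 0.04 (95% interval -0.30 to 0.37, adjusted p = 0.871).

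Set side by side, the classes differed in their medians but shared the same arrays. The median difference was 0.92 for the Ndufs and Ndufv genes (3 of 10 rose), 0.97 for the Ndufa, Ndufb and Ndufc genes (5 of 27 rose) and 0.25 for the Ndufaf genes (1 of 7 rose); 0 of each class fell. Over all genes 5.38% passed as higher, and 35.9% of the top signal decile, which held 5, 12 and 1 genes of these classes, so the classes also differed in brightness. Renormalized, the medians were -0.13, 0.33 and 0.07 and none of the classes held a passing gene (limma). No difference between classes was tested.

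**Figure D4:**
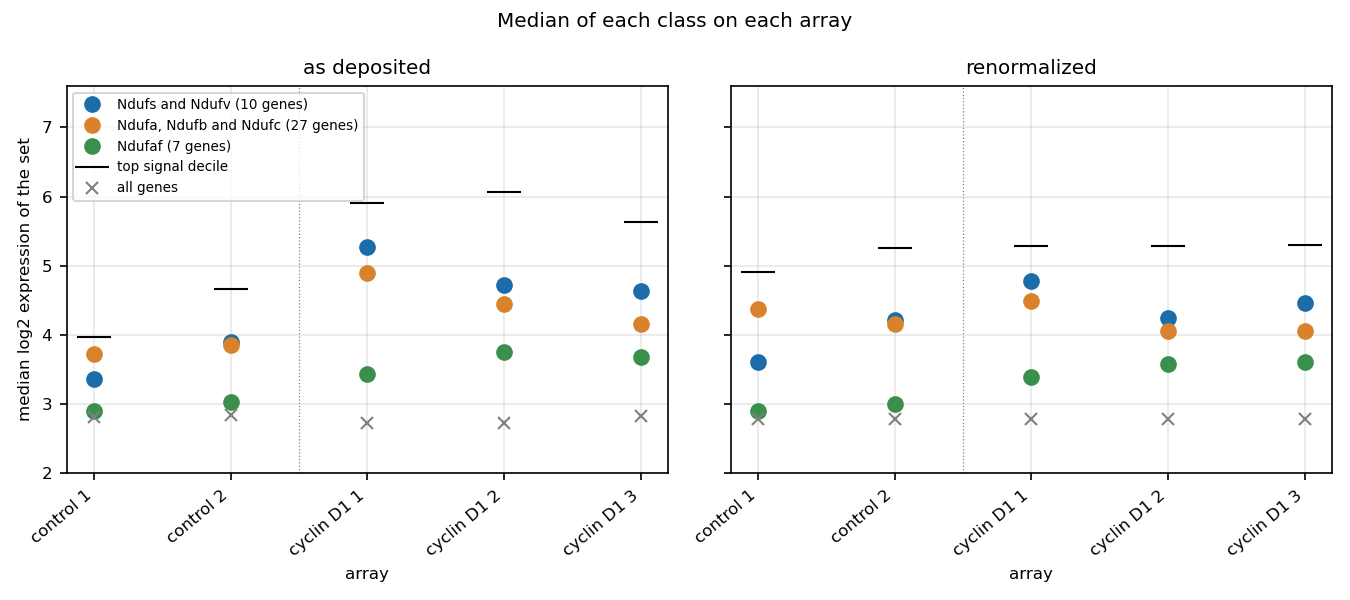
Median log2 expression of each class on each array, with the medians of the top signal decile and of all genes, as deposited (left) and renormalized (right). As deposited the Ndufs and Ndufv median goes from 3.36 and 3.89 in the controls to 4.63 to 5.26 in the cyclin D1 glands; renormalized, control 2 (4.22) and cyclin D1 replicate 2 (4.24) are nearly equal.

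Within the cyclin D1 group 1 array was most often the highest, which was not tested. In 31 of 44 members cyclin D1 replicate 1 had the highest value of the 3 (70.5%), against 32.1% of the top-decile genes, where replicate 2 was highest most often (51.9%; 25% of the members). Several markers of other cell types were also highest on that array. Of the brown fat list Ucp1, the uncoupling protein of brown fat, read 6.93 in cyclin D1 replicate 1 and 2.81 to 3.58 on the other 4 arrays, and Cox8b, a muscle and brown fat subunit of cytochrome c oxidase, read 7.21 against 3.46 to 4.78, both singled out after their values were seen. Prdm16 and Dio2 of the same list read 2.82 and 2.96 there, close to their other values. The mean of the 8 brown fat markers was 4.54 there, against 3.09 and 3.22 in the other cyclin D1 glands and 2.98 and 3.23 in the controls. Macrophage markers had a mean of 4.04 on that array, against 2.81 to 3.19 on the others, and white fat markers 5.77, against 4.50 to 5.27. Of the macrophage list Cd14 and Cd68 read 5.41 and 5.86 there. Adgre1 and Csf1r read 3.35 and 3.36 there, against at most 2.86 and 3.17 on the others, and Itgam had its lowest value there, 2.23. Skeletal muscle markers were low throughout, with means of 2.53 to 2.95. The part of these cell types in the members' values was not tested. Without cyclin D1 replicate 1 the median difference of the 44 was 0.63 as deposited and 0.14 renormalized.

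The controls differed from each other as well. Control 2 read higher than control 1 in 29 of 44 members (65.9%), against 53.1% of all genes and 81.7% of the top decile. The median of the members was 3.40 and 3.80 in the controls and 4.57, 4.39 and 4.05 in the cyclin D1 glands, and renormalized 3.70 and 4.07 against 4.24, 4.01 and 3.96, where control 2 lay above 2 of the 3 cyclin D1 glands.

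The 19 members not named by the rule, Ndufb9 and Ndufaf3 among them, had differences of 0.08 to 2.74 with a median of 0.78. Of these, 10 had an unadjusted p under 0.05 (52.6%, limma), against 26.3% of all genes and 77.4% of the top decile. That 0 of them passed follows from the rule, which names every passing member. Their renormalized differences ran from -0.60 to 1.39. For Ndufb11 of the membrane arm the 2 probe sets disagreed: 10525471, used here, differed by 1.44 and 10603837 by 0.13.

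Other genes of the pathway, from lists chosen with earlier results of these data known, were mixed. Of 37 measured subunits of complexes II to V 9 rose and 0 fell, with a median of 1.33 (0.24 renormalized) and 26 in the top decile. The 4 with the smallest p were Atp5a1 of ATP synthase, by 2.26, Uqcrc2 of complex III, by 2.38, and Cox6a1 and Cox7b of cytochrome c oxidase, by 3.30 and 2.59 on the log2 scale. Renormalized, these 4 genes differed by 0.87, 0.96, 1.57 and 0.79, none passing. Of the 26 in the top decile 8 passed, against 35.9% of all genes there.

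Of 12 measured assembly factors of complex I without the Nduf name 1 rose and 0 fell (median 0.23; 0.21 renormalized), near the 5.38% and 0.687% of all genes that did. Aifm1, which acts in mitochondrial import of complex I proteins, read 3.46 and 3.66 in the controls and 5.46, 5.21 and 4.68 in the cyclin D1 glands, a rise of 1.56 (SE 0.26, limma adjusted p = 0.0359; 0.83 renormalized). Tmem70, which also serves assembly of ATP synthase, differed by 0.84 (SE 0.17, adjusted p = 0.0508), just outside the threshold.

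Of 12 measured genes of iron-sulfur cluster assembly, which supplies the core subunits, 1 rose and 0 fell (median 0.35; 0.17 renormalized), again near the 5.38% of all genes that rose. It was Isca2, by 1.12 (SE 0.21, limma adjusted p = 0.0463; 0.91 renormalized). Of 20 regulators of mitochondrial biogenesis 2 rose and 0 fell, both in the top decile (35.9% of which rose), with a median of 0.10 on both scales. Gabpa, the ETS factor whose letters were searched above, read 3.36 and 4.77 in the controls and 7.00, 6.90 and 6.62 in the cyclin D1 glands, a rise of 2.77 (6.83-fold, SE 0.42, adjusted p = 0.0318; 1.66 renormalized, not passing). The mitochondrial DNA-binding gene Ssbp1 rose by 1.79 (SE 0.30, adjusted p = 0.0359), and renormalized it differed by -0.05. Ppargc1a, a coactivator of mitochondrial biogenesis that is also on the brown fat list, did not pass (difference 0.72, SE 0.22, adjusted p = 0.124).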

How the data were processed

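Expression in 5 mammary glands, 1 array per mouse, was read from the series' value table. The deposited values are log2 expression per probe set. Per the submitters' processing notes, the authors used RMA in Expression Console 1.1 (Affymetrix). That the scale is log2 was read from the range of the values, and other settings are not given in the sources used here. No detection calls were used. The number of arrays limits the precision. Of 35556 probe sets 21789 had 1 gene symbol in the platform annotation, 1621 several and 12146 none. The probe set with the highest mean was kept per symbol, and a shared probe set only for Nduf symbols without their own, which gave 19940 rows. Groups came from sample titles. The test was limma's (version 3.58.1, R version 4.3.3; two-sided moderated fit, Benjamini-Hochberg adjustment over all rows, threshold 0.05), after the fit was tested on simulated data. Renormalization is limma's quantile method on the gene values. Genes named with values were the nuclear core subunits, all passing members, in each series the 2 with the smallest p and the 2 with the lowest difference, Ndufa4, Ndufa4l2 and Ndufab1, and in other pathway lists at most 4 with the smallest p. Alternatives were renormalization, median centring, trend and robust priors, array weights, a dim-gene filter, other probe-set rules, the replicate number as a block, and each array left out. The members and lists were chosen with earlier results of these data known. The promoters of 5 members (Ndufa2, Ndufa4l2, Ndufaf6, Ndufb9, Ndufs1) were not analysed here.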

Additional observations from a re-analysis of the deposited data

How the results depend on the processing

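The differences of the members depended most on how the arrays' spread was treated. Renormalized, 51 genes were higher and 21 lower over all genes (70.8% of calls higher, against 88.7% as deposited), 0 members passed (0 in each class), and the medians were 0.27 for all members, -0.13 for Ndufs and Ndufv, 0.33 for Ndufa, Ndufb and Ndufc and 0.070 for Ndufaf genes. The sign was kept in 31 of 44 members, and among the genes named by the rule it turned for Ndufa10 (-0.28), Ndufc1 (-0.84), Ndufc2 (-0.41), Ndufs4 (-0.23), Ndufs5 (-0.16), Ndufs7 (-0.15) and Ndufv3 (-1.39). With array weights 263 genes were higher and 4 lower, 2 members passed (1 of Ndufs and Ndufv, 0 of Ndufa, Ndufb and Ndufc), and Ndufv1 was at 0.024; with median centring it was at 0.065. An intensity trend left 622 higher genes, 4 members and 1 of Ndufa, Ndufb and Ndufc. Adjusting over all probe sets left 5 members and 2 of Ndufa, Ndufb and Ndufc. With the filter on dim genes 56 genes were lower and 9 of Ndufa, Ndufb and Ndufc passed. The cause was not tested.

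Replicate numbers are shared by 2 pairs of mice, whose deviations from their group means correlated at -0.03 and 0.13. With 2 controls both values rest on the same control difference, so they cannot show whether the numbers mark pairs. The study's design calls the mice separate animals, and the numbers were read as numbers and not as pairs. With the replicate block 12 members passed, 8 of Ndufa, Ndufb and Ndufc among them, 10 genes were lower over all genes, and Ndufs8, Ndufv1 and Ndufv3 were at 0.014, 0.060 and -0.072. With the replicate block on renormalized values 0 genes passed in either direction and so 0 members, with medians of 0.32, 0.056 (Ndufs and Ndufv) and 0.41 (Ndufa, Ndufb and Ndufc), and Ndufa10 was at -0.35, Ndufb6 at -0.14, Ndufc1 at -1.03, Ndufc2 at -0.44, Ndufs4 at -0.13, Ndufs7 at -0.20 and Ndufv3 at -1.54.

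With 1 array left out, on either scale, the genes called higher ranged from 0 to 2219 and those called lower from 0 to 3152. Members passing as higher ranged from 0 to 11 and as lower from 0 to 5, and by class from 0 to 2, 0 to 7 and 0 to 2. The medians ranged from 0.14 to 1.08 (all members), -0.14 to 1.19 (Ndufs and Ndufv), 0.14 to 1.14 (Ndufa, Ndufb and Ndufc) and 0.011 to 0.37 (Ndufaf). Differences that took both signs ranged from -0.34 to 1.45 (Ndufa10), -0.18 to 2.63 (Ndufa4), -1.14 to 0.039 (Ndufa8), -0.018 to 0.10 (Ndufaf7), -0.33 to 1.91 (Ndufb6), -0.99 to 0.98 (Ndufc1), -0.48 to 1.57 (Ndufc2), -0.43 to 1.79 (Ndufs4), -0.50 to 0.32 (Ndufs5), -0.17 to 2.63 (Ndufs6), -0.51 to 0.59 (Ndufs7), -0.42 to 0.15 (Ndufs8), -0.48 to 0.22 (Ndufv1) and -1.71 to 0.56 (Ndufv3). With 1 control left, that array is assumed to vary like the other group.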

Other observations

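Among the 44 complex I genes 7 held exactly the same deposited value on 2 arrays (15.9%), against 19.9% of all genes; these values entered the tests as deposited.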
